A study of Mus musculus with 24 samples.

Results

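Purkinje cells are the only neurons that carry the output of the cerebellar cortex, and they degenerate in spinocerebellar ataxia type 1 (SCA1), the disease caused by an expanded polyglutamine tract in ATXN1. The genes described here are 30 named Purkinje cell genes out of 54232 genes listed in the count tables, chosen by name and found by symbol through the GENCODE mouse annotation. They were followed one by one and as a score, the mean over the 30 genes of log2 CPM (fragments on a gene, scaled by library size) in each mouse. All 30 passed the filter on low counts, which left 22502 genes for testing.

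A Purkinje cell integrates excitation from parallel and climbing fibers in a large dendritic tree and inhibits the deep cerebellar nuclei. Metabotropic glutamate receptors on its dendrites act through G proteins and inositol trisphosphate to release calcium from internal stores, so the cell holds unusual amounts of calcium buffers, calcium pumps and inositol phosphate enzymes. Its identity is held by a set of transcription factors, among them RORA, whose loss in the staggerer mouse stops Purkinje cell maturation.

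Whole cerebella of C57BL/6J-background mice aged 6 weeks were sequenced, 1 library per mouse. WT mice (Atxn1 2Q/2Q, n = 8) carried 2 unexpanded alleles, SCA1 mice (Atxn1 154Q/2Q, n = 4) carried 1 knocked-in expanded allele, SCA1 S776A mice (Atxn1 154Q[S776A]/2Q, n = 4) carried the serine-to-alanine change S776A on the expanded allele only, S776A double mice (Atxn1 154Q[S776A]/2Q[S776A], n = 4) carried it on both alleles, and WT S776A homozygous mice (Atxn1 2Q[S776A]/2Q[S776A], n = 4) carried it on 2 unexpanded alleles. The expanded allele is expressed from the mouse's own Atxn1 locus in all cells that use it, the S776A changes were made by CRISPR/Cas9, and which founder line each mouse came from is not given in the labels. The sequencing batch, inferred from the mapping summary of each library because the labels do not list it, was batch 1 for 4 WT mice and the 12 mice with an expanded allele and batch 2 for 4 WT and the 4 WT S776A homozygous mice, so each genotype was compared with WT mice from that batch only.

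The libraries held 62163600 to 88430180 fragments on genes. Markers of choroid plexus, which lies against the cerebellum, ranged widely within genotypes, from 20.5 to 1730 summed CPM in the WT mice of batch 1, from 889 to 5113 in SCA1, from 33.0 to 3137 in SCA1 S776A, from 19.9 to 3042 in S776A double, from 531 to 2728 in the WT mice of batch 2 and from 22.5 to 918 in WT S776A homozygous mice. Xist was over 10 CPM in 5 mice, namely S776A double replicate 1, WT replicates 6 and 7 and WT S776A homozygous replicates 3 and 4. WT S776A homozygous replicate 4 stood apart from its group, with 5.29% of its fragments on mitochondrial genes against 3.10% to 3.87% in the other mice of that genotype. Replicate mice were separate animals, and the same WT mice of batch 1 served as controls for 3 genotypes.

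Upstream sequences were shown for 3 members because RORA, itself a member, is known to bind sites that include the letters AGGTCA in Purkinje cell genes. The RefSeq promoter table used here (GRCm38.p6) matched 21 of the 30 members. Not matched were Arhgap26, Calb1, Car8, Foxp2, Lhx5, Mtss1, Ppp1r17, Shh and Skor2. AGGTCA was searched on both strands in the 250 bases before each start, with each start of a gene as a window of its own. It stood in 7 of 33 windows of members (21.2%) and in 14.0% of the 32851 windows of all genes. The members that hold it were Arhgef33, Dner, Pcp2, Pcp4 and Rgs8, which are 5 of the 21 matched members (23.8%), against 15.8% of all genes. The windows printed were picked because they hold it. Printed here are the windows of Rgs8 (chr1:153665423-153665672, plus strand, 1 of several RefSeq starts), Pcp2 (chr8:3625548-3625797, minus strand) and Dner (chr1:84696222-84696471, minus strand), 5′ to 3′ along the gene, with AGGTCA in capitals.
Rgs8: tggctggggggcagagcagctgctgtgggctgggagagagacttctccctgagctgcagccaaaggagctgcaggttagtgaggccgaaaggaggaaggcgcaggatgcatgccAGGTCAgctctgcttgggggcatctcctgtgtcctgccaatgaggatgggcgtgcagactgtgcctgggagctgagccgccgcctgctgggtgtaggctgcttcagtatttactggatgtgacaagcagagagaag
Pcp2: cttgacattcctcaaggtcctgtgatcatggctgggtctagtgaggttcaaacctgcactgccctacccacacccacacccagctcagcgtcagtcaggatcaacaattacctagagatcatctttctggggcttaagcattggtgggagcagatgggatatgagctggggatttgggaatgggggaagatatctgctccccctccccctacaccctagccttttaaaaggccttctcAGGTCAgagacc
Dner: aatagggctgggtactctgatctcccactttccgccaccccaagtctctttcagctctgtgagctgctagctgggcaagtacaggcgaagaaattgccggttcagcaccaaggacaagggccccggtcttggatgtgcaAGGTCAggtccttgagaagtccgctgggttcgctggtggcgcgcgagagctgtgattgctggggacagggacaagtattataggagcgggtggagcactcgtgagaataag

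The match began 136 bases before the start in Rgs8, 12 bases before it in Pcp2 and 111 bases before it in Dner. A match describes the letters of these windows and is not evidence of binding.

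The label of the tissue was checked first. The 6 defining markers of Purkinje cells (Calb1, Pcp2, Car8, Ppp1r17, Skor2 and Rgs8) were detected in all 24 mice. Per kilobase of exon, the highest member in the WT mice of batch 1 was Pvalb (parvalbumin, also made by molecular layer interneurons) with 551 ± 29.7 CPM per kb (SD, n = 4). Car8 followed with 454 ± 21.0 and Calb1 with 240 ± 7.09 CPM per kb (SD, n = 4 each). Rgs8 (147 ± 12.5 CPM per kb), Dner (139 ± 9.16) and Ppp1r17 (139 ± 5.96) did not differ beyond their spread. The transcription factors lay lower, from Rora with 31.5 ± 1.39 and Lhx1 with 20.3 ± 1.15 to Bcl11a with 1.12 ± 0.07 and Foxp2 with 0.71 ± 0.04 CPM per kb (SD, n = 4 each).

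**Figure D1:**
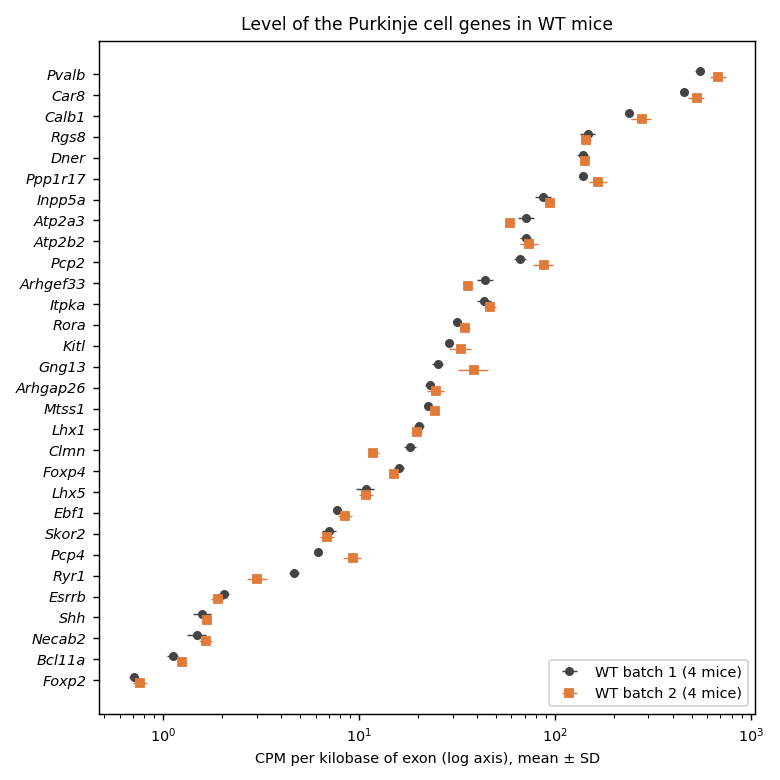
Level of each of the 30 Purkinje cell genes in WT mice, in CPM per kilobase of exon on a log axis, mean ± SD of 4 mice in each batch. Pvalb, Car8 and Calb1 lead and Foxp2 is lowest. Pcp2, Pcp4, Gng13, Shh and some other members are undercounted, since fragments that overlap a neighbouring gene were left out.

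Some levels are low because of how fragments were counted. Those that touched exons of more than 1 gene were left out, and 941 of the 1828 exon bases of Pcp2 lie over Pet100 on the other strand. Counting by strand gave Pcp2 2.67 to 3.08 times as many fragments, a sum that includes those of Pet100. For Gng13, which overlaps Chtf18, the same ratio was 5.00 to 6.14, and for Shh it was 1.64 to 2.12. Pcp4 shares 243 of its 1026 exon bases with Igsf5 on the same strand, which no strand setting separates. The values of these 4 genes are therefore uncertain as levels. The ratio by strand was also above 1 for other members, among them Bcl11a (1.24 to 1.35), Arhgef33 (1.20 to 1.28) and Inpp5a (1.12 to 1.18). Arhgap26, at 1.05 to 1.11, shares exon bases with a second entry of the same name on the same strand. Its values here are those of 1 entry.

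The question put to the SCA1 mice was whether the expanded allele moves Purkinje cell genes at an age when motor signs are beginning. As a set the genes stood lower. The score was 6.85, 6.70, 6.70 and 6.75 in the 4 WT mice of batch 1 and 6.40, 6.50, 6.49 and 6.44 in the 4 SCA1 mice. All SCA1 mice lay below all WT mice of the batch, with group means of 6.46 ± 0.05 against 6.75 ± 0.07 (SD, n = 4 each) and a difference of -0.29 on the log2 scale. Single genes gave the same picture, with 28 of 30 members below 0 and a median log2 fold change of -0.295, beside a median of 0.002 over all genes tested. In bulk tissue, fewer Purkinje cells and less RNA of these genes per cell cannot be told apart. Nor can a change in other cells, for the 9 members treated here as widely shared, whose median was -0.319. The score without these 9 was 6.13 to 6.26 in SCA1 mice and 6.43 to 6.58 in the WT mice of batch 1.

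No member was called in SCA1 mice by edgeR's quasi-likelihood test (Benjamini-Hochberg adjusted p under 0.01 with a log2 fold change beyond 0.5 either way, the study's thresholds), which called 0.173% of all genes. At an unadjusted p under 0.05, 20 of 30 members were lower (4.32% of all genes) and 1, Ebf1, was higher (3.93% of all genes). In 23 members all 4 SCA1 mice lay below all 4 WT mice of the batch, against 4.99% of all genes. Rgs8 came closest, with an adjusted p of 0.0152 by edgeR's quasi-likelihood test (Benjamini-Hochberg), and Arhgap26 had 0.046. DESeq2 with batch as a covariate, ComBat-seq followed by DESeq2, and edgeR on the mice of batch 1 each called Rgs8 and Lhx5. The same count of 2 was reached when WT S776A homozygous replicate 4, which is not part of this comparison but enters the shared estimate of spread, was left out. In no other comparison did DESeq2, with the batch term or after ComBat-seq, call a member.

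**Figure D2:**
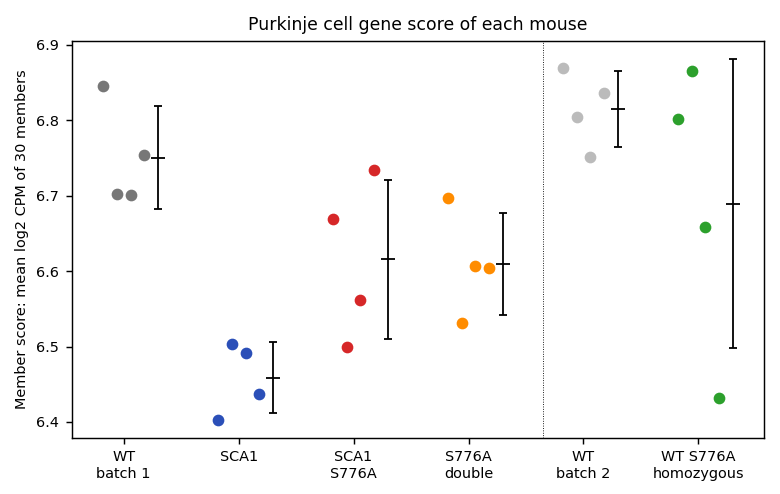
Purkinje cell gene score of each mouse, the mean log2 CPM of 30 genes, by genotype, with 1 point per mouse and the mean ± SD of 4 mice as a black bar to its right. The dotted line separates batch 1 from batch 2. All SCA1 mice lie below all WT mice of batch 1, and WT S776A homozygous replicate 4 lies at 6.43.

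The 5 regulators of G proteins and GTPases plus the phosphatase inhibitor Ppp1r17 had a median log2 fold change of -0.38 in SCA1 mice. In this group, 6 of 6 members were lower at an unadjusted p under 0.05 (4.32% of all genes). Rgs8, a GTPase activator that ends G protein signals, had 1588, 1307, 1376 and 1390.4 CPM in the WT mice of batch 1 and 949, 1084, 980.4 and 903 CPM in SCA1 mice. The groups did not overlap, and the log2 fold change of -0.53 (standard error, SE, 0.11, 95% interval -0.75 to -0.31) was the lowest of the 30 members. In SCA1 S776A mice Rgs8 had 1319.8, 1131, 1195 and 1293 CPM, and in S776A double mice 1309.9, 1062, 1075 and 1210.0 CPM. All mice of SCA1 S776A lay above all SCA1 mice, while 2 of the S776A double mice lay just under the highest SCA1 mouse.

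Arhgap26, a GTPase activator, had 234, 229.5, 217 and 211 CPM in WT mice of batch 1 and 178, 168, 189.6 and 172 CPM in SCA1 mice. Its log2 fold change was -0.33 (SE 0.08), with all SCA1 mice below all WT mice. Arhgef33, a guanine nucleotide exchange factor, had 237, 197, 195 and 197 CPM in WT and 145, 166, 161 and 145 CPM in SCA1 mice. That gap, -0.42 (SE 0.11) on the log2 scale, had an adjusted p of 0.122 in edgeR's quasi-likelihood test. Gng13, a G protein gamma subunit, had 21.2, 19.5, 18.2 and 19.1 CPM in WT and 12.7, 14.9, 15.4 and 14.5 CPM in SCA1 mice, -0.44 (SE 0.12) on the log2 scale.

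Pcp2, a Purkinje cell modulator of G protein signaling, had 127, 109, 122 and 128 CPM in WT mice and 88.7, 98.1, 101 and 111 CPM in SCA1 mice. Here the groups overlapped, since SCA1 replicate 4 lay above WT replicate 2, and the log2 fold change was -0.28 (SE 0.10, adjusted p = 0.327, edgeR). Ppp1r17, a phosphatase inhibitor controlled by cGMP-dependent protein kinase, had 254, 234, 237 and 253 CPM in WT and 192, 208, 227 and 220.3 CPM in SCA1 mice. Its log2 fold change was the smallest of this group, -0.21 (SE 0.07), without overlap of the groups.

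Both enzymes that clear inositol trisphosphate had lower means in SCA1 mice. Itpka, the kinase, had 88.6, 74.4, 75.7 and 77.4 CPM in WT mice and 55.8, 62.6, 58.6 and 63.4 CPM in SCA1 mice, and its log2 fold change was -0.39 (SE 0.09, adjusted p = 0.0656, edgeR). Inpp5a, the phosphatase, had 565, 477, 462 and 473 CPM in WT and 381, 421, 393 and 406 CPM in SCA1 mice, and its log2 fold change was -0.30 (SE 0.08, adjusted p = 0.113, edgeR). Neither gene's groups overlapped, and WT replicate 1 was the highest mouse for both.

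All 8 members that buffer, pump or release calcium, or bind partners that do, lay below 0 in SCA1 mice. Of the 8, 5 were lower at an unadjusted p under 0.05 (4.32% of all genes). Calb1 (calbindin, the standard Purkinje cell calcium buffer) had 1194, 1140.0, 1129.9 and 1194 CPM in WT mice and 898, 977, 1059 and 993 CPM in SCA1 mice. All SCA1 mice were below all WT mice, with a log2 fold change of -0.25 (SE 0.08, 95% interval -0.41 to -0.09, adjusted p = 0.235, edgeR). Car8, which binds the inositol trisphosphate receptor, had 1824, 1636, 1759 and 1783 CPM in WT and 1327, 1468, 1527 and 1415 CPM in SCA1 mice. The difference was -0.29 on the log2 scale (SE 0.07, adjusted p = 0.096, edgeR), again without overlap.

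The calcium pump of the endoplasmic reticulum, Atp2a3, had the largest difference of these 8, -0.48 (SE 0.18). Atp2b2, the pump of the plasma membrane, had -0.37 (SE 0.13). In a fit of the mice of batch 1 alone these standard errors were 0.078 and 0.082. Necab2, an EF-hand protein with few fragments, had 3.58, 2.99, 2.80 and 3.08 CPM in WT and 2.56, 2.39, 2.65 and 1.97 CPM in SCA1 mice. Pcp4, a calmodulin-binding peptide, had 6.39, 5.97, 6.52 and 6.56 CPM in WT and 4.75, 5.51, 5.17 and 5.84 CPM in SCA1 mice, with a log2 fold change of -0.26 (SE 0.13, adjusted p = 0.634, edgeR). Of the remaining members, Ryr1, the ryanodine receptor, had -0.32 (SE 0.23) and Pvalb -0.15 (SE 0.10). The fit of batch 1 alone gave them standard errors of 0.081 and 0.073.

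The 9 transcriptional regulators were the most divided group in SCA1 mice. At an unadjusted p under 0.05, 4 were lower (4.32% of all genes) and 1 higher (3.93% of all genes). Lhx5, a LIM homeodomain factor, had 33.3, 28.7, 25.9 and 28.5 CPM in WT mice and 21.1, 20.2, 20.4 and 19.4 CPM in SCA1 mice. The log2 fold change was -0.52 (SE 0.12, 95% interval -0.78 to -0.27, adjusted p = 0.0687, edgeR), while its relative Lhx1 had -0.27 (SE 0.12). The 4 SCA1 mice agreed closely for Lhx5, with a coefficient of variation of 3.37%.

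Rora, the nuclear receptor, had 438, 395, 405 and 411 CPM in WT and 365, 367, 392 and 303 CPM in SCA1 mice, with a log2 fold change of -0.21 (SE 0.08, adjusted p = 0.458, edgeR). Bcl11a, a zinc finger factor, had 15.9, 14.7, 13.7 and 14.5 CPM in WT and 11.2, 11.7, 12.4 and 13.1 CPM in SCA1 mice. Skor2, a corepressor needed for Purkinje cell differentiation, had 24.9, 21.1, 20.9 and 21.7 CPM in WT and 18.2, 19.0, 17.2 and 16.2 CPM in SCA1 mice. For Skor2 the groups did not overlap, yet the log2 fold change of -0.33 had a standard error of 0.17 and an adjusted p of 0.655 in edgeR's quasi-likelihood test.

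The forkhead factor Foxp4 (-0.32, SE 0.19, no overlap) and the orphan nuclear receptor Esrrb (-0.17, SE 0.14, with overlap) lay below 0. Ebf1 and the forkhead factor Foxp2 went the other way. For Foxp4 the fit of the mice of batch 1 alone gave an SE of 0.06 (adjusted p = 0.00646, edgeR), with a fold change under the minimum for a call. Ebf1, a helix-loop-helix factor, had 72.3, 74.6, 75.3 and 78.5 CPM in WT and 88.4, 84.1, 88.2 and 77.1 CPM in SCA1 mice, and 3 of the 4 SCA1 mice lay above all WT mice (log2 fold change 0.17, standard error 0.08, adjusted p = 0.589, edgeR). Foxp2 had a log2 fold change of 0.04 with a 95% interval of -0.18 to 0.26.

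Among the 3 surface and secreted ligands, Dner, a Notch-related ligand seen by Bergmann glia, had a log2 fold change of -0.33 (SE 0.10) without overlap of the groups. Kitl, the Kit ligand presented to interneurons, had -0.19 (SE 0.10), and Shh, the mitogen of granule cell progenitors, had -0.18 (SE 0.14). The groups overlapped for the last 2. Mtss1, a membrane-bending protein of dendritic spines, had 262, 253, 243 and 264 CPM in WT and 203, 225, 211 and 221 CPM in SCA1 mice, with a log2 fold change of -0.25 (SE 0.06, adjusted p = 0.091, edgeR). Clmn, a calponin-type membrane protein, had -0.49 (SE 0.18, and 0.11 in the fit of the mice of batch 1 alone).

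**Figure D3:**
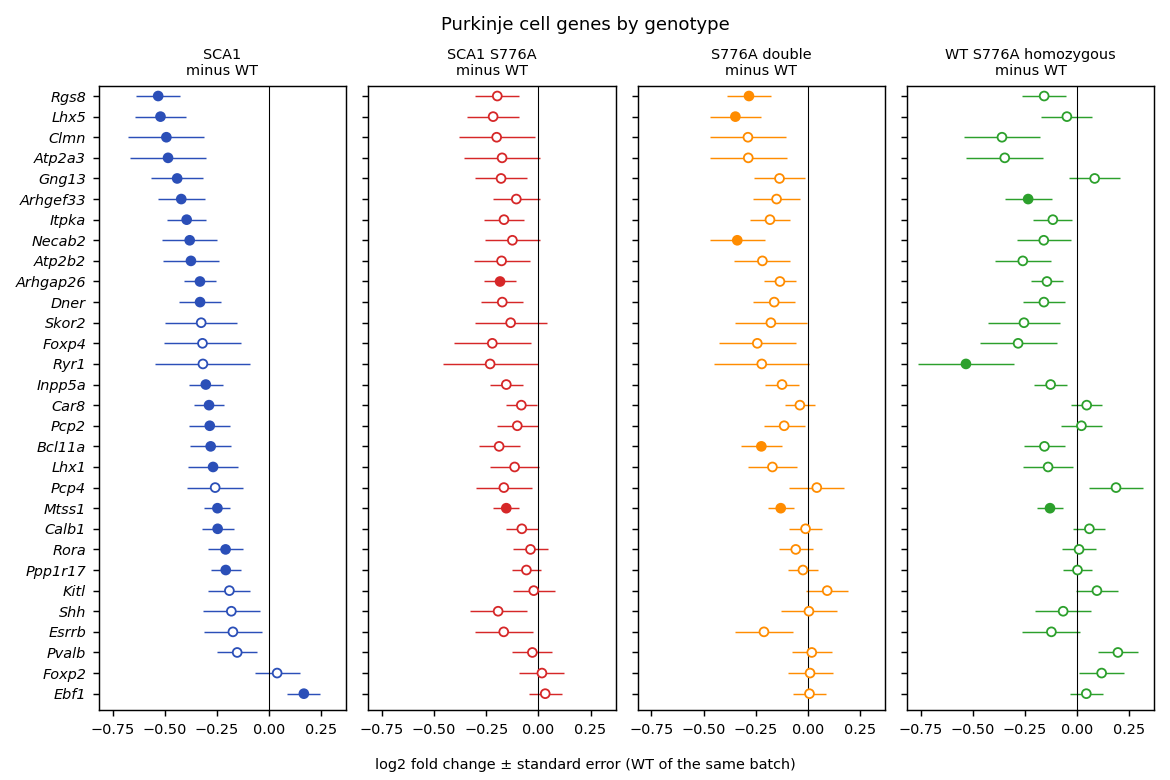
Log2 fold change ± standard error of each of the 30 Purkinje cell genes in 4 genotypes, compared with the 4 WT mice from the same batch, in the order of the SCA1 values. Filled points have an unadjusted p under 0.05 in edgeR's quasi-likelihood test, 21 in SCA1, 2 in SCA1 S776A, 5 in S776A double and 3 in WT S776A homozygous mice, and no point passed the study's thresholds.

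Other Purkinje cell genes lay in the same direction. The 18 further Purkinje cell genes used here are not members and were also chosen with earlier results known. Most act in glutamate signaling, calcium release and firing, but Aldoc, a glycolytic enzyme, and Ebf2, a transcription factor, are among them. All 18 lay below 0 in SCA1 mice, with a median log2 fold change of -0.37. Of these, 10 were lower at an unadjusted p under 0.05 (4.32% of all genes) and none was called (0.173% of all genes). The direction was not particular to SCA1 mice. Below 0 also lay 18 in SCA1 S776A (median -0.15), 16 in S776A double (-0.20) and 17 in WT S776A homozygous mice (-0.24). Those with an unadjusted p under 0.05 and lower were 1, 3 and 2 (1.95%, 3.4% and 3.41% of all genes). In the 4 WT S776A homozygous mice the mean log2 CPM of the 18 genes was 8.06, 8.10, 7.70 and 7.16. The WT mice of batch 2 had 7.98 to 8.12, so only replicates 3 and 4 lay below them. The 6 defining markers of Purkinje cells had a median of 0.011 in WT S776A homozygous mice, with 4 above 0. In SCA1 mice the 6 granule cell markers had a median of -0.10 with 1 lower at an unadjusted p under 0.05 (4.32% of all genes). The 6 Bergmann glia and astrocyte markers had -0.01 with 0, and the 5 oligodendrocyte markers 0.20 with 2, both higher (3.93% of all genes). The 6 markers of interneurons and Golgi cells had a median of -0.19, with 5 below 0, 2 lower and 1 higher at an unadjusted p under 0.05. All 5 choroid plexus markers lay above 0, with a median of 1.20 and none at an unadjusted p under 0.05. With the choroid plexus level as a covariate, 20 members were lower at an unadjusted p under 0.05 in SCA1 mice, with Pcp4 in and Lhx1 out. The share of all genes in that fit is not given here. Set against the granule cell markers of the same mouse, the score difference in SCA1 mice was -0.20 in place of -0.29.

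In SCA1 S776A mice, which carry the alanine on the expanded allele, the score was 6.67, 6.50, 6.56 and 6.73, a mean of 6.62 ± 0.11 (SD, n = 4) with a difference of -0.13 from WT. By the median over members in place of the mean that difference was -0.065, and against the granule cell markers of the same mouse it was -0.061. Replicate 4 lay within the range of the WT mice, replicate 2 within that of the SCA1 mice and the other two between them. Members lay below 0 in 28 of 30 cases, with a median log2 fold change of -0.16 beside 0.003 over all genes. None was called (0.0133% of all genes), Mtss1 and Arhgap26 were lower at an unadjusted p under 0.05 (1.95% of all genes), and in 5 members all mice lay below all WT mice of the batch (2.52% of all genes). Replicate 2 was the lowest of its group in 20 of 30 members and replicate 4 the highest in 19.

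Mtss1 had 237, 221, 222 and 238 CPM in SCA1 S776A mice, all below the WT minimum, with a log2 fold change of -0.15 (SE 0.06). Arhgap26 had 201, 185, 192 and 206 CPM, with -0.18 (SE 0.08). For both the adjusted p was 1 in edgeR's quasi-likelihood test. This count of 2 varied with the mice in the fit. It was 12 in a fit of the mice of batch 1 alone, 9 without WT S776A homozygous replicate 4, and 0 without SCA1 S776A replicate 2. The share of 1.95% belongs to the fit of all 24 mice. Shares of all genes in the other fits are not given here, so these counts cannot be set against them.

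In S776A double mice the score was 6.70, 6.53, 6.61 and 6.60, a mean of 6.61 ± 0.07 (SD, n = 4). All 4 mice lay below all WT mice, replicate 1 only just, at 6.697 against 6.701 in WT replicate 3. The median over members gave overlap, with WT replicate 2 at 7.04 under all S776A double mice (7.08 to 7.17). By the median over members in place of the mean, the difference from WT was -0.03 in place of -0.14, and against the granule cell markers it was -0.068. Members lay below 0 in 24 of 30 cases, with a median log2 fold change of -0.14. None was called (0.0267% of all genes), 5 were lower at an unadjusted p under 0.05 (3.4% of all genes) and in 3 members all mice lay below all WT mice (3.54% of all genes).

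The 5 were Rgs8, Lhx5, Mtss1, Necab2 and Bcl11a. Lhx5 had 23.5, 21.1, 22.9 and 23.9 CPM in S776A double mice, all below the WT minimum of 25.9, with a log2 fold change of -0.35 (SE 0.12, adjusted p = 0.579, edgeR). Necab2 had 2.57, 2.15, 2.71 and 2.42 CPM, also below all WT mice, with -0.34 (SE 0.13, adjusted p = 0.631, edgeR). Bcl11a had -0.22 (SE 0.10), Rgs8 -0.28 (SE 0.11) and Mtss1 -0.13 (SE 0.06). The count was 15 in a fit of the mice of batch 1 alone, 11 without WT S776A homozygous replicate 4 and 1 without S776A double replicate 2. Shares of all genes in those fits are not given here.

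Calb1 and Car8, lower in SCA1 mice without overlap, did overlap WT mice here. Calb1 had 1212, 1146, 1128 and 1137 CPM, with a log2 fold change of -0.01 (SE 0.08), and Car8 had 1833, 1630.0, 1627 and 1729.6 CPM, with -0.04 (SE 0.07). S776A double replicate 1, the mouse of its group with Xist over 10 CPM, was the highest of the 4 in 20 members and the lowest in 4, among them Pcp2 with 92.0 CPM against 111 to 125 and Pcp4 with 4.92 CPM against 6.80 to 7.27.

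The direct comparisons asked whether mice with S776A on the expanded allele differ from SCA1 mice. Both sets of values lay toward the WT side. Against SCA1, 27 of 30 members lay above 0 in SCA1 S776A mice (median log2 fold change 0.16) and 27 in S776A double mice (median 0.17), and these comparisons share the 4 SCA1 mice. No member was called in either, where 0.00444% and 0% of all genes were called. At an unadjusted p under 0.05, 9 members were higher in SCA1 S776A mice (2.46% of all genes) and 11 in S776A double mice (1.68% of all genes). All mice lay above all SCA1 mice in 6 members in SCA1 S776A (1.73% of all genes) and in 8 in S776A double mice (1.57% of all genes).

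For Rgs8 the log2 fold change against SCA1 was 0.33 (SE 0.11, adjusted p = 0.859, edgeR) in SCA1 S776A and 0.25 (SE 0.11, adjusted p = 1, edgeR) in S776A double mice. Arhgef33 had 0.32 (SE 0.11) and 0.27 (SE 0.11). Its SCA1 S776A mice had 200.2, 174, 198 and 195 CPM and its S776A double mice 208, 168, 169 and 199 CPM, all above the highest SCA1 mouse at 166 CPM.

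Car8 had 1750.3, 1515, 1631 and 1718 CPM in SCA1 S776A mice. Against SCA1 its log2 fold change was 0.21 (SE 0.07) there and 0.25 (SE 0.07, adjusted p = 0.94, edgeR) in S776A double mice, in which every mouse was above every SCA1 mouse. Calb1 had 1148, 1024, 1070.3 and 1166 CPM in SCA1 S776A mice, with 0.17 (SE 0.08) against SCA1, and 0.24 (SE 0.08) in S776A double mice. Itpka had 76.9, 68.3, 61.4 and 75.4 CPM in SCA1 S776A and 69.3, 69.7, 74.7 and 65.1 CPM in S776A double mice, with 0.23 (SE 0.09) and 0.21 (SE 0.09) against SCA1.

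Between S776A double and SCA1 S776A mice, which differ in the S776A change on the unexpanded allele, the members had a median log2 fold change of -0.01, with 17 below 0 and 13 above. None was called (0% of all genes) and none had an unadjusted p under 0.05 in either direction (2.96% of all genes). For Rgs8 the difference was -0.08 with a 95% interval of -0.30 to 0.13, for Calb1 0.07 with -0.09 to 0.23, for Car8 0.04 with -0.11 to 0.19, for Itpka -0.02 with -0.21 to 0.18 and for Lhx5 -0.13 with -0.39 to 0.13. The bound farther from 0 was smaller in size than the estimated difference between SCA1 and WT mice in 17 of the 30 members, these 5 included. It was not smaller in the others, among them Pcp4, Skor2 and Necab2. That estimate has an error of its own, for Calb1 -0.25 with a 95% interval of -0.41 to -0.09. The count is therefore no test that the 2 genotypes are alike. The 9 transcriptional regulators all lay below 0 (median -0.03, from -0.13 to -0.006), as did 51.4% of all genes. The 3 ligands lay above 0 (median 0.12, from 0.01 to 0.20). These genes were measured in the same mice, so the directions are not independent and were not tested.

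**Figure D4:**
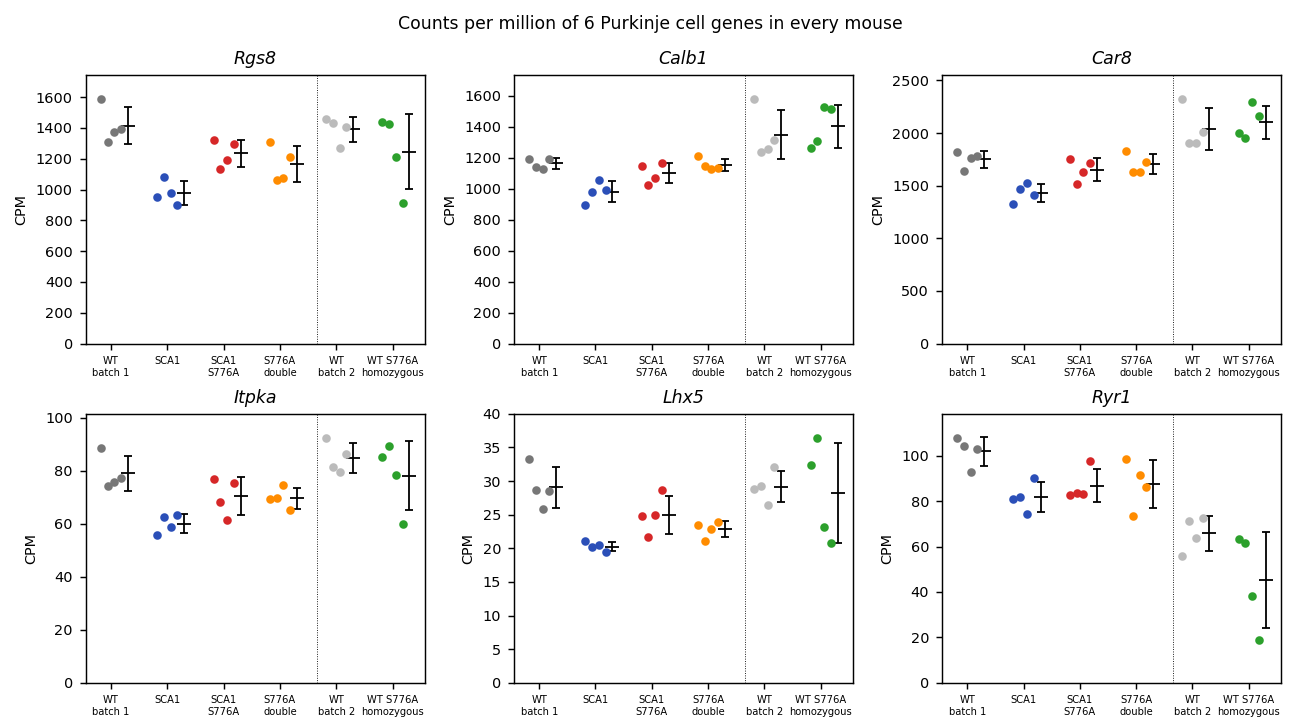
CPM of 6 Purkinje cell genes in every mouse, by genotype, with 1 point per mouse and the mean ± SD of 4 mice as a black bar to its right. The dotted line separates batch 1 from batch 2. For each of the 6 genes all SCA1 mice lie below all WT mice of batch 1, and Ryr1 of the WT S776A homozygous mice reaches down to 18.8 CPM.

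In WT S776A homozygous mice, which have no expanded allele, the score was 6.80, 6.86, 6.66 and 6.43 against 6.87, 6.80, 6.75 and 6.84 in the WT mice of batch 2. The first 2 mice lay among the WT mice and the others below them, so the group's SD of 0.19 exceeded its difference of -0.13 from WT. Without replicate 4 that difference was -0.04, and by the median over members in all 4 mice it was -0.28. No member was called (0% of all genes), 3 were lower at an unadjusted p under 0.05 (3.41% of all genes) and no member had all mice below all WT mice (1.34% of all genes). Over all genes, 2246 had an unadjusted p under 0.05 by edgeR in either direction. The median log2 fold change of the members was -0.125, with 19 below 0 and 11 above, and -0.021 without replicate 4.

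The 3 members were Ryr1, Mtss1 and Arhgef33. Ryr1 had 55.9, 71.1, 63.6 and 72.8 CPM in the WT mice of batch 2 and 63.4, 61.4, 38.2 and 18.8 CPM in the homozygous mice. Its log2 fold change of -0.53 (SE 0.23, adjusted p = 0.485, edgeR) was -0.28 without replicate 4. For Arhgef33 the values were 182, 167, 162 and 163 CPM in WT and 166, 164, 143 and 99.1 CPM in homozygous mice, with -0.24 (SE 0.11), and -0.10 without replicate 4. Mtss1 had 276, 287, 256 and 288 CPM in WT and 272, 264, 249.9 and 225 CPM in homozygous mice, with -0.13 (SE 0.06), and -0.08 without replicate 4.

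Replicate 4 of this genotype was the lowest of its group in 19 of 30 members and the highest in 6. It was lowest for Skor2 (9.94 CPM against 16.0 to 23.4), Clmn (63.5 against 96.8 to 150.3) and Atp2a3 (124 against 216 to 329.5), and highest for Pvalb (1018 against 681 to 785), Pcp4 (13.5 against 8.50 to 11.1) and Gng13 (37.7 against 26.9 to 32.5). Members with short exons (773 to 3141 bases) averaged -0.11 from the WT mean of the batch in this mouse, and members with long exons (9640 to 21838 bases) -0.52, with 10 members in each set. In WT S776A homozygous replicate 3, the same averages were -0.08 and -0.23. Across the 30 members, Spearman's correlation of exon length with the difference from WT was -0.37 in replicate 4 and -0.27 in replicate 3, a description across genes that share a library. Over all 24 mice it ranged from -0.54 in WT replicate 5 to 0.52 in S776A double replicate 1, so other mice had values of this size across the members. Across 22486 genes, WT S776A homozygous replicate 4 had the lowest correlation of the series, -0.23. SCA1 replicate 4 had -0.214 and WT replicate 5 -0.097. In WT replicate 5 the short members averaged 0.13 and the long members -0.02. Replicates 3 and 4 of the homozygous genotype had Xist over 10 CPM and the highest mitochondrial shares of the series, and the part these play in the values was not tested.

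**Figure D5:**
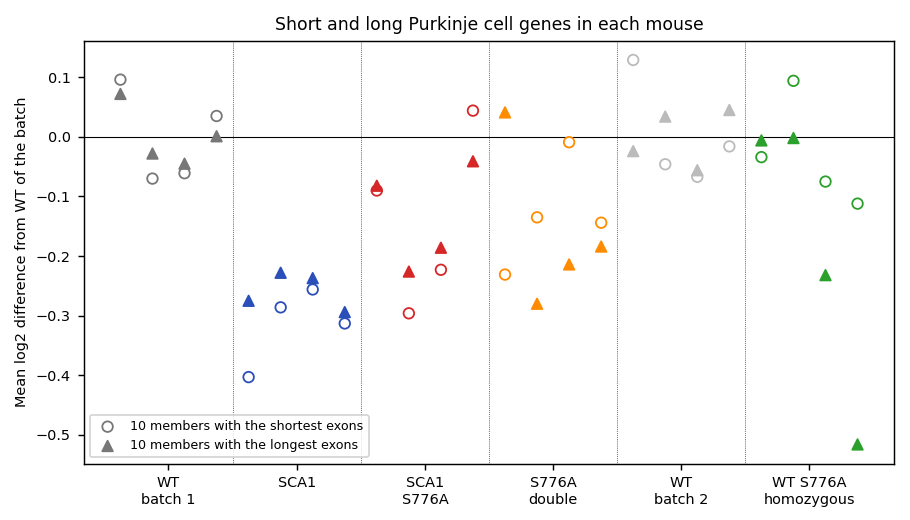
Mean log2 difference from the WT mice of the batch for the 10 Purkinje cell genes with the shortest exons (open circles) and the 10 with the longest (filled triangles) in each mouse, by genotype. In SCA1 mice both sets lie between -0.40 and -0.23, whereas in WT S776A homozygous replicate 4 they lie at -0.11 and -0.52.

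In SCA1 mice the sets of short and long members lay closer together. Short members averaged -0.40, -0.29, -0.26 and -0.31 in the 4 SCA1 mice, and long members -0.28, -0.23, -0.24 and -0.29. Mitochondrial shares were 2.56% to 2.99% in SCA1 and 2.33% to 2.59% in the WT mice of batch 1. Between mice of the same genotype the members varied by a median coefficient of variation of 6.27% in the WT mice of batch 1 and 7.02% in SCA1 mice, against 8.90% and 10.2% over all genes tested, and by 17.5% in WT S776A homozygous mice, against 17.0%.

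WT mice of the 2 batches differed in several of the 30 members, though not more often than over all genes. Comparing the WT mice of batch 2 with those of batch 1, 7 members were higher (24.5% of all genes) and 3 lower (27.4% of all genes) at an unadjusted p under 0.05. Gng13 had 29.8 against 19.5 CPM on average, and Pcp2 160.0 against 121 CPM. Clmn had 147 against 226 CPM, and Ryr1 65.8 against 102 CPM. Those batch gaps exceeded the difference between SCA1 and WT mice for each of these 4 genes, and without the batch term the median of the members in SCA1 mice was -0.345 in place of -0.295.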

How the data were processed

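Reads of cerebellar RNA were trimmed (Trimmomatic 0.36) and aligned to GRCm38.p6 (STAR 2.7.2d) by the authors, per the submitters' processing notes, and they deposited whole-number counts of fragments per gene for 24 mice, without normalization. A later batch correction described in the methods is not in these counts. Column 2, the unstranded counts, was used, since gene totals by strand had a ratio between 0.9995 and 1.0035. Of 54232 identifiers, 54165 matched GENCODE M21. The batch was inferred by k-means clustering (k = 2) of 4 mapping shares (silhouette 0.634).

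Counts were scaled by TMM (factors 0.944 to 1.056) and tested in R 4.3.3 by edgeR 4.0.16 (quasi-likelihood, robust) over 22502 genes of all 24 mice, with genotype and batch as terms and Benjamini-Hochberg adjustment. Calls needed an adjusted p under 0.01 together with a log2 fold change beyond 0.5 either way. Scores used log2 CPM with a prior count of 2, without a test. The tests were also run on simulated data, with changes larger than those of the members and a single spread for all genes. That run does not show what the tests can call here. The genes given in full are Calb1, Pcp2, Pcp4, Car8, Rgs8, Ppp1r17, Skor2 and Rora, plus up to 3 further members with the lowest p in each comparison with WT. Gng13 and Ebf1, among others, were given as well after their values were seen. The members and lists were chosen with earlier results of these data known. Alternatives used DESeq2 1.42.0, ComBat-seq of sva 3.50.0, other filters, scalings, covariates and subsets of mice. Behavioral and protein data were left aside, and 1 feature in the files is not reported.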

Additional observations from a re-analysis of the deposited data

Results flagged for a closer look

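For the 17 genes given in full and the score, each group of 4 mice was searched for a mouse that stood apart from the other 3, in log2 CPM. This flagged 7 of 108 groups, where chance flags about 1 in 20 groups (5.4 here). In S776A double replicate 1, Pcp4 was 2.31 against 2.77 to 2.87 in the other mice and Arhgap26 was 7.84 against 7.59 to 7.62. WT replicate 1 was high for Inpp5a with 9.14 against 8.85 to 8.90 and for Arhgef33 with 7.89 against 7.61 to 7.62. Ppp1r17 was 8.40 in WT replicate 5, against 8.10 to 8.13 in the other WT mice of batch 2. Rora was 8.54 in SCA1 S776A replicate 2, against 8.67 to 8.69. Ryr1 was 6.61 in SCA1 S776A replicate 4, against 6.37 to 6.38.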

How the results depend on the processing

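No paired analysis was possible because the labels number no mice across genotypes. Called members in SCA1 mice, 0 as reported, came to 2 with DESeq2 and batch, with ComBat-seq followed by DESeq2, with mice of batch 1 only, with mice under 10 CPM of Xist and at an adjusted p under 0.05 without a fold minimum, and to 1 without a batch term, which also gave a median of -0.345. Counts of members lower than WT at an unadjusted p under 0.05 moved by over 1.5 times elsewhere. Shares of all genes in these other fits, and in those below that leave out 1 mouse, are not given here. For SCA1 S776A, 2 became 5 with ComBat-seq, 12 without a batch term, 12 with batch 1 only and 15 with low-Xist mice. For S776A double, 5 became 11 without a batch term, 15 with batch 1 only and 18 with low-Xist mice. For WT S776A homozygous, 3 became 5 with DESeq2, with no batch term and with the choroid plexus covariate, 7 with ComBat-seq, 6 with library totals, 1 without a filter and 0 with batch 2 only. Members higher than SCA1 went from 9 in SCA1 S776A to 5 without a batch term, 16 with batch 1 only and 18 with low-Xist mice, and from 11 in S776A double to 7 with the choroid plexus covariate. Between S776A double and SCA1 S776A, 1 member was higher with low-Xist mice, and the median of -0.01 became 0.018 with Xist as a covariate. The score difference of SCA1 was -0.239 by the median over members and -0.203 against granule cell markers, that of SCA1 S776A -0.065 and -0.061, that of S776A double -0.028 and -0.068, and that of WT S776A homozygous -0.283 and -0.176. The choroid plexus covariate, the low-Xist subset and the counts by strand were chosen after seeing the data. The cause of these moves was not tested.

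Leaving out each mouse in turn, called members in SCA1 ranged from 0 to 2 and lower members from 18 to 25, with a median from -0.324 to -0.264 and a score difference from -0.308 to -0.26. Lower members ranged from 0 to 9 in SCA1 S776A, from 1 to 11 in S776A double and from 0 to 15 in WT S776A homozygous mice, where the median ranged from -0.191 to -0.021 and the score difference from -0.184 to -0.04. Members higher than SCA1 ranged from 3 to 14 in SCA1 S776A and from 4 to 14 in S776A double mice. Between S776A double and SCA1 S776A mice, higher members ranged from 0 to 2 and the median from -0.065 to 0.038. Every median against WT and against SCA1 kept its direction in all of these fits. Members near 3 CPM or with exons shared between genes are the least certain, and 4 mice per group limit what the test can call.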
